A study of Mus musculus with 5 samples.

Results

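Lung myofibroblasts were the cells that the authors named Myofibro within their class of myofibroblasts and pericytes, after clustering lung cells from all libraries together. By that annotation, 590 of 22118 annotated cells were myofibroblasts, and the whole table held 23852 cells once doublets and unknown cells were counted. The authors' name was taken as given. The members were found by name and not by any measured value.

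Lungs came from female BALB/c mice, and their dissociated cells were sequenced one by one for RNA in 5 libraries. Mice were 6 weeks old at the start and first received intravenous injections, 3 per week for 3 weeks. One arm was given tumor-secreted factors (TSF), which is medium in which pieces of 4T1 mammary tumors had been kept, and the other was given control medium (CM) incubated without tumor. All mice, controls included, were then injected intravenously with 25000 4T1 cells that expressed CD90.1, so no library came from a lung free of cancer cells.

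Lungs were taken at day 11, at 10 weeks of age, or at day 16, at 11 weeks of age. The groups were CM day 11, CM day 16 and TSF day 16, with 1 library each, and TSF day 11, with libraries a and b. Cells of 3 mice were pooled in a library, so differences between mice cannot be read. Between a and b the counts of cell classes differed by no more than sampling noise gives (chi-square of 11.0 at 11 degrees of freedom, with 50.4 or more for every other pair). By label a and b are replicates, whereas the methods describe 1 pool of 3 mice per group, and whether they came from separate pools is not known. They were counted as 1 sample, with the mean of their values. With each group as 1 sample, no test between groups was possible, and every interval given covers counting error of cells only.

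Myofibroblasts are mesenchymal cells that join the matrix production of a fibroblast to the contractile apparatus of smooth muscle. In the lung they lie along airways and alveolar ducts, and they are known for laying down and tensing collagen in repair and fibrosis. Pericytes, with which the authors grouped them, sit instead on the wall of capillaries.

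4 genes were used as the marker list of these cells. Acta2 encodes smooth muscle alpha-actin, Tagln the actin-binding protein transgelin, Myh11 the smooth muscle myosin heavy chain, and Aspn the small matrix proteoglycan asporin. Their levels in the myofibroblasts were not analysed here, because the files used give depth, cluster and type of each cell but no expression matrix. The label was thus not checked against expression. All 4 were among the 1000 genes that the authors flagged as highly variable and used to place the cells, against 4.21% of the 23771 genes in the gene table. Over 4 lists of mesenchymal genes (myofibroblast, smooth muscle contractile, pericyte, fibroblast), 25 of 28 genes carried that flag. The exceptions were Mylk, the kinase of the myosin light chain, and the pericyte genes Cspg4, a membrane proteoglycan, and Abcc9, a channel subunit. These lists were chosen from known cell type genes, so a high share of variable genes says nothing particular about myofibroblasts.

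The same markers could be read in the cancer cells of day 16, a cell type that should lack them. Acta2 was detected in 0 of 29 cancer cells of CM and in 1 of 139 of TSF. Tagln was detected in 0 of 29 and 2 of 139 cancer cells. Myh11 and Aspn had no UMI (unique molecular identifier, 1 counted RNA molecule) in any of them, and 0 cells, counted as at most 3, allow a share of cells with a UMI of up to 10.3% in CM and 2.16% in TSF. The exact intervals of the same zeros reach 11.9% and 2.62%. These limits concern cells with a UMI and not cells that express the gene. Myofibroblast markers were thus at or near 0 in the cancer cells after the authors' correction for free RNA. The median cancer cell held 27679 UMIs in CM and 26615 in TSF at day 16, against 3329 and 2488 in the myofibroblasts.

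Of the 8 smooth muscle contractile genes, 4 were at 0 in the cancer cells of each group. Tpm1, a tropomyosin that many cell types make, was detected in 28 of 29 cancer cells of CM and 130 of 139 of TSF, at 5.23 and 3.75 UMIs per 10000. Mylk was detected in 1 of 29 cells (3.45%, interval 0.0873 to 17.8%) and in 43 of 139 cells (30.9%, interval 23.4 to 39.3%). Of the 8 pericyte genes, 8 were at 0 in CM and 6 in TSF, and Kcnj8, a potassium channel, and Rgs5, a regulator of G protein signaling, had 1 cell each in TSF. Of the 8 fibroblast genes, 6 were at 0 in CM and 1, Lum, in TSF. Dcn, which encodes decorin, was detected in 2 of 29 and 16 of 139 cancer cells. Pdgfra, a receptor for platelet-derived growth factor, was detected in 13 and 63. Inmt had 9 cells in TSF (6.47%), Col1a1 and Col1a2 6 each (4.32%), Tcf21 3 (2.16%) and Col3a1 2 (1.44%). None of these genes had a cell in CM. With 29 cells in CM, 0 cells allow a share of up to 11.9%, which is above each of these TSF shares. A difference between CM and TSF can therefore not be read from these genes. Tpm1 and Pdgfra were thus found in many 4T1 cells, whereas Myh11 and Aspn had no cancer cell with a UMI. How many of all genes were at 0 in the same cancer cells was not computed. The numbers of genes at 0 can therefore not be read as a trait of these lists.

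To ask whether TSF changed how many myofibroblasts were recovered, their share was taken in every library. CM day 11 held 98 myofibroblasts among 3738 annotated cells, or 2.62% (interval 2.13 to 3.19%). The TSF day 11 libraries held 137 of 5113 (2.68%, interval 2.25 to 3.16%) and 126 of 4804 (2.62%, interval 2.19 to 3.11%). CM day 16 held 103 of 3567 (2.89%, interval 2.36 to 3.49%), and TSF day 16 held 126 of 4896 (2.57%, interval 2.15 to 3.06%). All 5 intervals overlapped, with CM day 16 highest and TSF day 16 lowest. By number of cells, myofibroblasts ranked between place 9 and place 12 of 21 cell types.

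The share was 1.01 times as high in TSF as in CM at day 11 (interval 0.799 to 1.29) and 0.891 times at day 16 (interval 0.681 to 1.17). From day 11 to day 16 it was 1.10 times as high in CM (interval 0.827 to 1.47) and 0.971 times in TSF (interval 0.778 to 1.20). None of these 4 intervals was apart from 1, and all include moderate changes in either direction. Over all 21 cell types, the interval was apart from 1 for 33.3% of types in TSF over CM at day 11 and for 42.9% at day 16. Between days it was apart from 1 for 52.4% of types in CM and for 52.4% in TSF. Ordered by distance from a ratio of 1, myofibroblasts were at place 2 and place 4 of 21 in the comparisons of TSF with CM at day 11 and day 16, and at place 3 and place 2 between days in CM and TSF. The plot of the ratios of all cell types shows this position near 1 on both days.

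**Figure D1:**
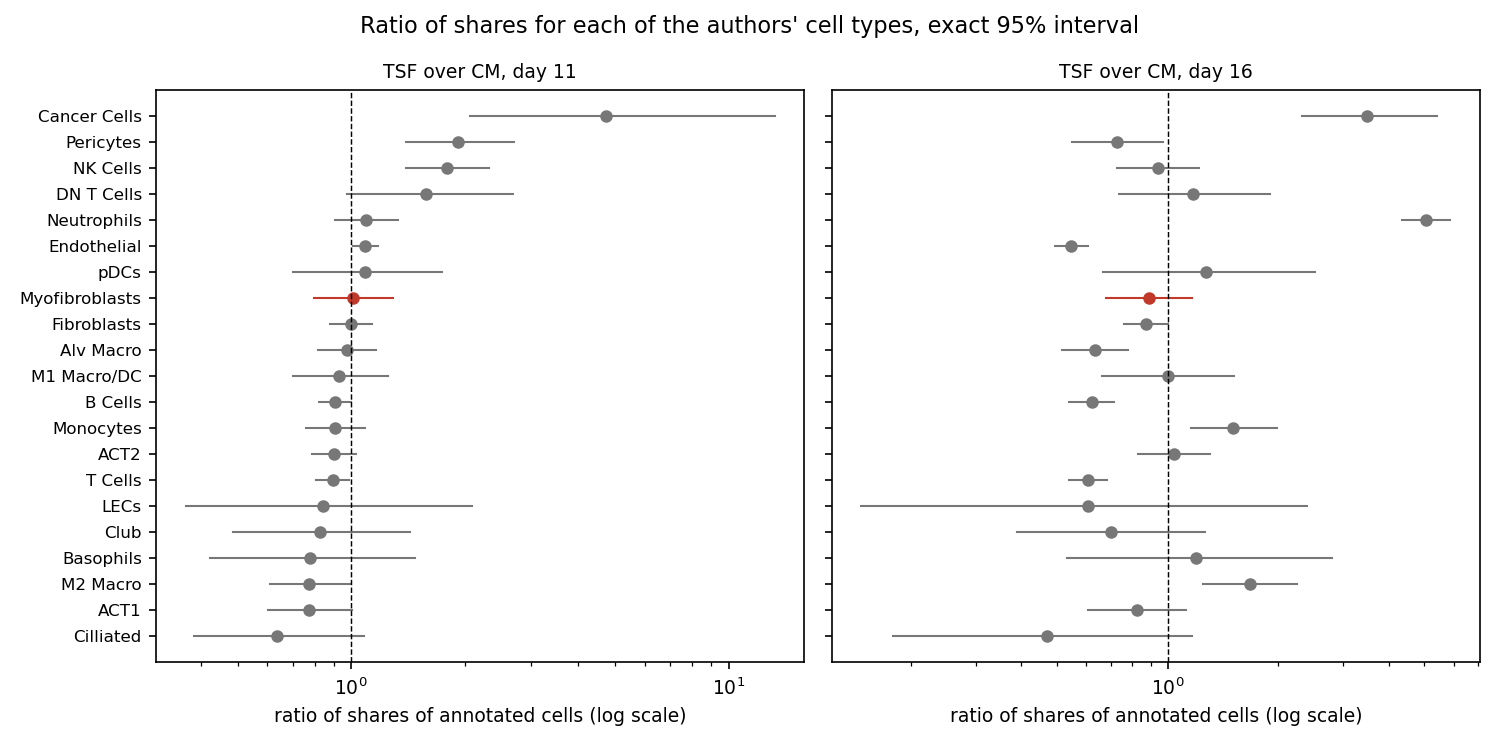
Ratio of TSF over CM shares of annotated cells for each of the 21 cell types named by the authors, at day 11 and day 16, on a log axis, with exact 95% intervals for counting error. Myofibroblasts (red) lie at 1.01 and 0.891, with both intervals across 1.

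A share depends on what else is in the library. Granulocytes made up 29.1% of annotated cells in TSF day 16 and 4.47 to 6.00% in the other libraries. With granulocytes left out, myofibroblasts were 2.74% of cells in CM day 11, 2.81% and 2.76% in TSF day 11 a and b, 3.07% in CM day 16 and 3.63% in TSF day 16. TSF day 16 was then highest instead of lowest, although its interval (3.03 to 4.31%) still overlapped that of CM day 16 (2.51 to 3.71%). The ratio of TSF over CM at day 16 became 1.18 (interval 0.904 to 1.55), and that of day 16 over day 11 in TSF became 1.30 (interval 1.05 to 1.62).

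Among non-immune cells without cancer cells, myofibroblasts were 5.46% in CM day 11, 5.40% and 5.33% in TSF day 11 a and b, 6.01% in CM day 16 and 7.59% in TSF day 16. The 4 other libraries lay close together and TSF day 16 above them. The ratio of TSF over CM at day 16 was 1.26 (interval 0.967 to 1.66), and day 16 over day 11 in TSF was 1.42 (interval 1.14 to 1.76). Endothelial cells, the largest other part of this denominator, counted 652 in TSF day 16 and 868 in CM day 16. Leaving out cancer cells alone, which were 139 of 4896 cells in TSF day 16, gave 2.65% there and 2.91% in CM day 16.

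**Figure D2:**
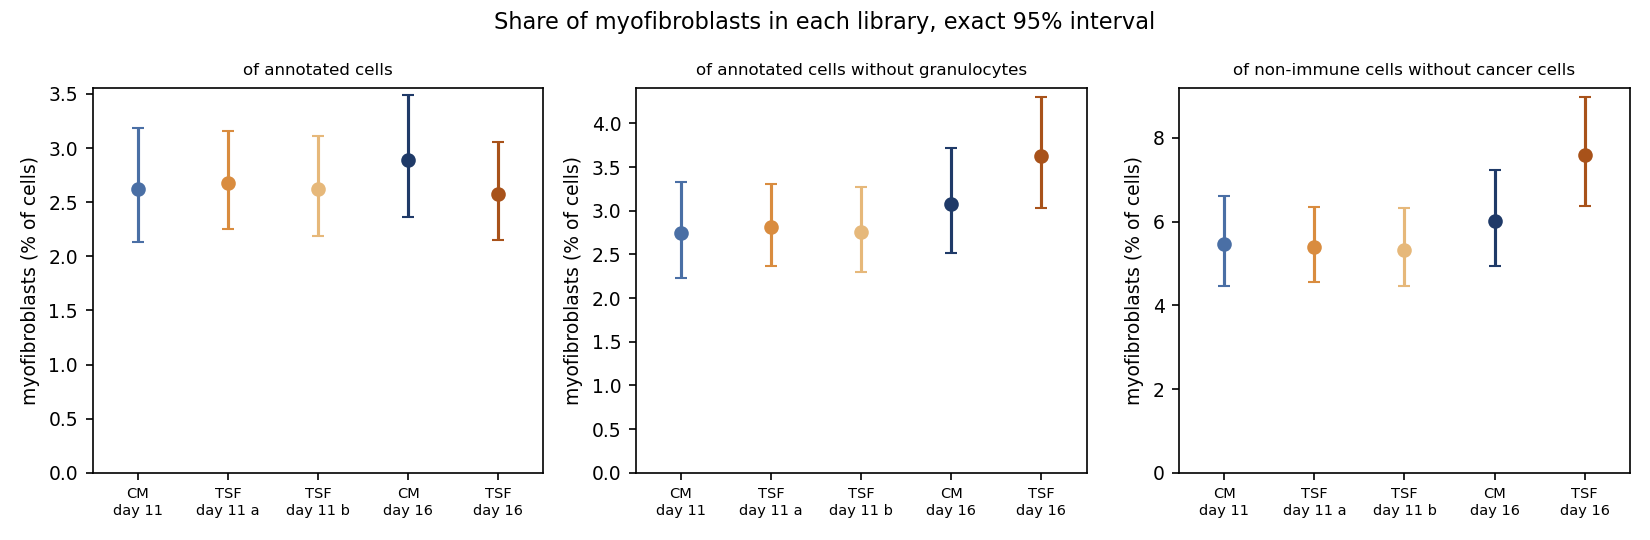
Myofibroblasts as a percent of annotated cells (left), of annotated cells without granulocytes (middle) and of non-immune cells without cancer cells (right) in each library, with exact 95% intervals. TSF day 16 is lowest at 2.57% on the left and highest at 3.63% and 7.59% in the middle and on the right.

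To compare myofibroblasts with their mesenchymal neighbours, their number was divided by that of fibroblasts, the main collagen-producing cells of the lung. There were 0.291 myofibroblasts per fibroblast in CM day 11, 0.293 and 0.298 in TSF day 11 a and b, 0.272 in CM day 16 and 0.278 in TSF day 16. The ratio of TSF over CM was 1.02 at day 11 (interval 0.775 to 1.34) and 1.02 at day 16 (interval 0.753 to 1.39). Day 16 over day 11 was 0.937 in CM and 0.942 in TSF, with both intervals across 1. In all annotated cells, myofibroblasts and fibroblasts were recovered in nearly one proportion in every library, including TSF day 16 where granulocytes changed both shares. In cells of at least 2000 UMIs the proportion was less even, from 0.219 (TSF day 11 a) to 0.296 (CM day 16). TSF over CM was then 0.882 at day 11 (interval 0.636 to 1.22) and 0.828 at day 16 (interval 0.579 to 1.18). Among all mesenchymal cells, myofibroblasts were 17.7 to 20.4% in the 5 libraries, with overlapping intervals.

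Against pericytes the proportion was not even. CM day 11 held 98 myofibroblasts and 46 pericytes, or 2.13 per pericyte (interval 1.49 to 3.09). The other libraries held 1.09 (TSF day 11 a), 1.16 (TSF day 11 b), 1.02 (CM day 16) and 1.25 (TSF day 16) per pericyte. CM day 11 was the highest and its interval overlapped little with the others, which overlapped one another. TSF over CM was 0.526 at day 11 (interval 0.347 to 0.789) and 1.22 at day 16 (interval 0.822 to 1.82), and day 16 over day 11 was 0.479 in CM (interval 0.299 to 0.764) and 1.11 in TSF (interval 0.803 to 1.55). Pericytes were the term that differed: their share of annotated cells was 1.92 times as high in TSF as in CM at day 11, whereas that of myofibroblasts was 1.01 times.

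Pericytes were also shallow, with a median of 1740 UMIs against 2858 in myofibroblasts. In cells of at least 2000 UMIs, CM day 11 held 4.60 myofibroblasts per pericyte and TSF over CM at day 11 was 0.614, with an interval (0.287 to 1.11) that crossed 1. In cells of at least 1500 UMIs the number in CM day 11 was 3.23. The number of myofibroblasts per pericyte thus moved with the depth minimum, and CM day 11 remained the highest library under each.

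Per endothelial cell, myofibroblasts numbered 0.115 (CM day 11), 0.109 and 0.104 (TSF day 11 a and b), 0.119 (CM day 16) and 0.193 (TSF day 16). TSF over CM was 0.927 at day 11 (interval 0.723 to 1.20) and 1.63 at day 16 (interval 1.22 to 2.18). Here TSF day 16 stood alone, and the endothelial share of annotated cells was 0.547 times that of CM at day 16.

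Per cancer cell, there were 16.3 myofibroblasts in CM day 11, which had 6 cancer cells, and 3.55 in CM day 16. In TSF there were 4.28 and 2.93 at day 11 and 0.906 at day 16, so cancer cells outnumbered myofibroblasts in that library alone. The number of myofibroblasts per cancer cell in TSF was 0.221 times that of CM at day 11 (interval 0.0742 to 0.513) and 0.255 times at day 16 (interval 0.153 to 0.420). The cancer cell share of annotated cells was 4.74 times as high in TSF as in CM at day 11 and 3.49 times at day 16, while the myofibroblast shares stayed near one another.

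**Figure D3:**
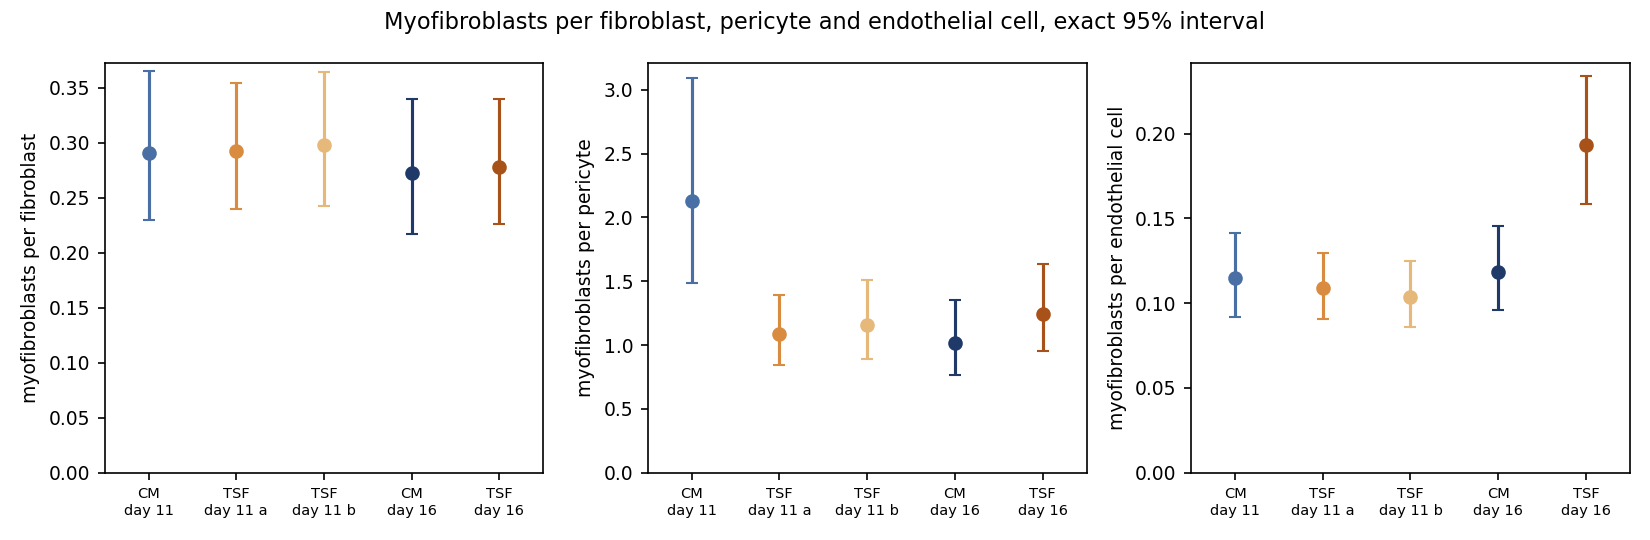
Number of myofibroblasts per fibroblast (left), per pericyte (middle) and per endothelial cell (right) in each library, with exact 95% intervals. The left panel is level at 0.272 to 0.298, CM day 11 stands high at 2.13 per pericyte, and TSF day 16 stands high at 0.193 per endothelial cell.

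On the authors' map of all cells, the myofibroblasts formed 2 islands. The lower one (clusters 94 and 115, median map height 1.47) held 189 cells and the upper one (clusters 68, 71 and 82, median height 1.57) held 400. The islands were set apart after the map was seen, at a height of 1.5. 1 myofibroblast, from CM day 11, lay in cluster 133 among 40 pericytes, at a height of 0.798. The 5 clusters held 625 cells, of which 589 (94.2%) were named myofibroblasts, 1 a pericyte and 4 fibroblasts, and 31 were set aside by the authors as doublets or unknown. The 19 doublets were in clusters 68 and 82 of the upper island and the 12 unknown cells in cluster 94 of the lower island. Each of the 5 clusters held cells of every library.

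The islands differed in RNA content. Lower island cells had a median of 1812 UMIs, 969 genes and 1.89% mitochondrial UMIs, and upper island cells 3650 UMIs, 1575 genes and 3.06%. The order was the same in every library, with lower and upper medians of 1986 and 3778 UMIs in CM day 11, 1586 and 3430 in TSF day 11 a, 1693 and 3435 in TSF day 11 b, 2381 and 4283 in CM day 16 and 1825 and 3596 in TSF day 16. Among cells of 2000 to 4000 UMIs, lower island cells had a median of 1196 genes in 66 cells and upper island cells 1445 genes in 171 cells. Depth differed within this range too, with medians of 2422 and 3106 UMIs, so the difference in genes is not shown at equal depth. Which genes told the islands apart was not analysed here. The clusters were built from gene expression of these same cells, so these values describe the islands and test nothing.

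The lower island held 27 of 98 myofibroblasts in CM day 11 (27.6%), 39 of 137 (28.5%) and 39 of 126 (31.0%) in TSF day 11 a and b, 28 of 103 in CM day 16 (27.2%) and 56 of 126 in TSF day 16 (44.4%, interval 35.6 to 53.6%). The 4 other libraries lay between 27.2 and 31.0%, and TSF day 16 was above them. The number of lower per upper island cells was 2.14 times as high in TSF as in CM at day 16 (interval 1.18 to 3.91) and 1.10 times at day 11 (interval 0.636 to 1.91). In TSF it was 1.89 times as high at day 16 as at day 11 (interval 1.19 to 3.01), and in CM 0.968 times (interval 0.496 to 1.89).

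Depth moved with this result. With cells of at least 1500 UMIs the ratio of TSF over CM at day 16 was 1.70 (interval 0.885 to 3.29), and with at least 2000 UMIs it was 1.23 (interval 0.574 to 2.67), so the interval crossed 1 under both. Day 16 over day 11 in TSF moved the other way, to 2.20 (interval 1.28 to 3.80) and 3.31 (interval 1.55 to 7.10). The higher minimum took away mostly lower island cells, of which 63.0% had under 2000 UMIs against 15.2% of upper island cells. TSF day 16 and CM day 16 are 1 library each, and a shift of cells between islands, a shift in RNA content and a trait of the library cannot be told apart.

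As a share of all annotated cells, the upper island was 1.87% in CM day 11, 1.92% and 1.81% in TSF day 11 a and b, 2.10% in CM day 16 and 1.43% in TSF day 16. TSF over CM at day 16 was 0.680 (interval 0.484 to 0.955), and 0.902 (interval 0.642 to 1.27) without granulocytes in the denominator. The lower island was 0.722, 0.763, 0.812, 0.785 and 1.14% in the same order. TSF over CM at day 16 was 1.46 (interval 0.910 to 2.38), and 1.93 (interval 1.21 to 3.16) without granulocytes. With either denominator the upper island ratio was below 1 and the lower island ratio above 1. The granulocyte share changed which of these intervals was apart from 1, and the proportion between islands did not depend on it. By number of cells, only cluster 71 of the upper island clusters was smaller in TSF day 16 than in CM day 16, at 15 against 36. Cluster 68 held 23 against 15 and cluster 82 held 32 against 24, out of 4896 and 3567 annotated cells. These are counts and not shares, and TSF day 16 held more annotated cells. The counts thus do not show a drop in all clusters of the upper island.

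**Figure D4:**
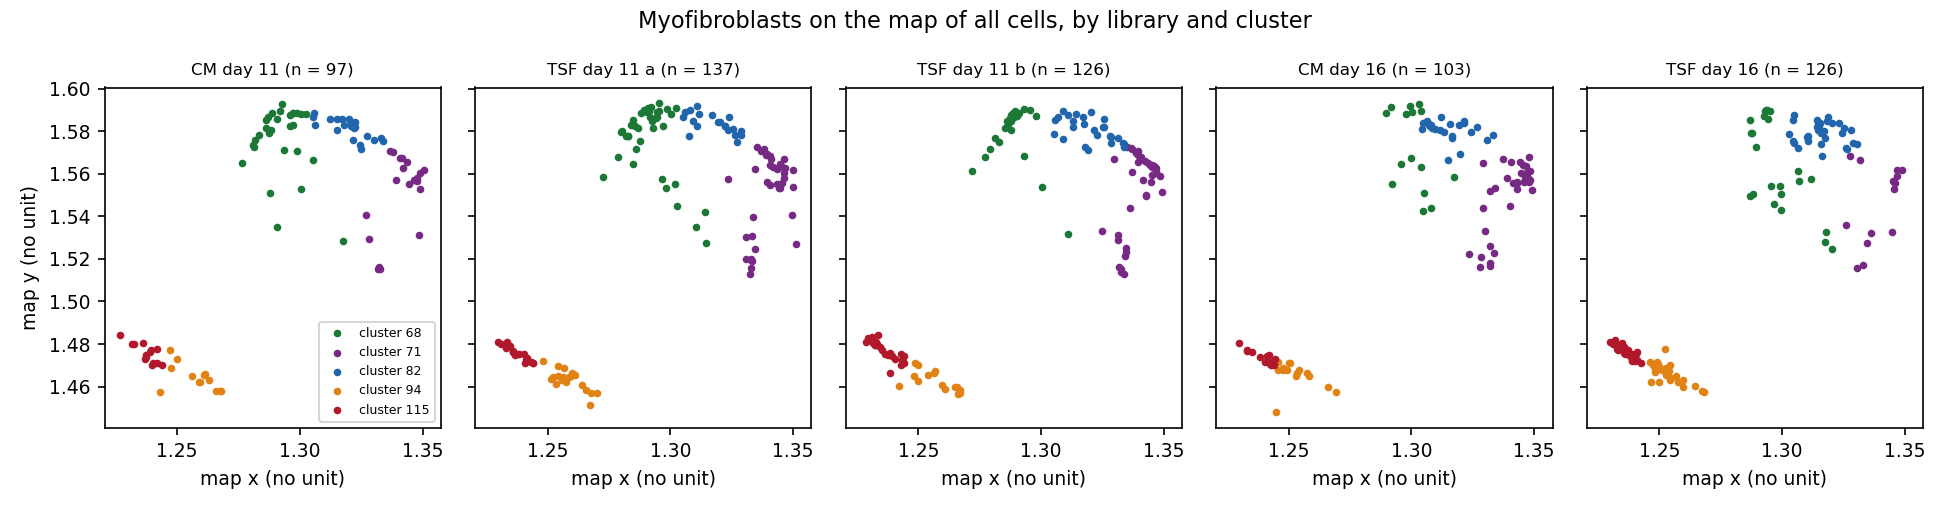
Position of 589 myofibroblasts on the authors' map of all cells (axes without unit), 1 panel per library, colored by cluster. Clusters 94 and 115 form the lower island and clusters 68, 71 and 82 the upper one, and the right arm of the upper island, cluster 71, is sparse in TSF day 16 with 15 cells.

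Within the upper island, cluster 71 varied most between the day 16 libraries. It held 20 of 98 myofibroblasts in CM day 11 (20.4%), 39 of 137 (28.5%) and 37 of 126 (29.4%) in TSF day 11 a and b, 36 of 103 in CM day 16 (35.0%, interval 25.8 to 45.0%) and 15 of 126 in TSF day 16 (11.9%, interval 6.82 to 18.9%). The day 16 libraries were the highest and the lowest of the 5. The odds of a myofibroblast lying in cluster 71 were 0.252 times as high in TSF as in CM at day 16 (interval 0.119 to 0.515) and 1.59 times at day 11 (interval 0.884 to 2.93). Day 16 over day 11 was 2.10 in CM (interval 1.06 to 4.20) and 0.332 in TSF (interval 0.169 to 0.620), on opposite sides of 1. The ratio of TSF over CM at day 16 was nearer to 1 in deeper cells, at 0.318 (interval 0.147 to 0.667) with at least 1500 UMIs and 0.406 (interval 0.180 to 0.890) with at least 2000 UMIs. Cluster 71 was singled out after its values were seen, from 5 clusters compared, and its genes were not analysed here.

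The other clusters differed less between the day 16 libraries. Between days in CM, cluster 68 changed about as much as cluster 71, whose odds were 2.10 times as high at day 16. Cluster 68 was 29.6% in CM day 11 and 14.6% in CM day 16 (odds 0.406 times, interval 0.187 to 0.857) and was 28.5%, 19.0% and 18.3% in TSF day 11 a, b and TSF day 16. Cluster 82, the deepest with a median of 4313 UMIs, ranged from 14.6 to 25.4% of myofibroblasts. Cluster 94 was 12.7 to 14.6% in 4 libraries and 24.6% in TSF day 16, where its odds were 1.91 times those of CM (interval 0.927 to 4.08). In TSF the odds of cluster 94 were 2.13 times as high at day 16 as at day 11 (interval 1.19 to 3.77). Cluster 115 ranged from 12.6 to 19.8%. Of these 4 clusters, none had an interval of TSF over CM apart from 1 on either day.

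**Figure D5:**
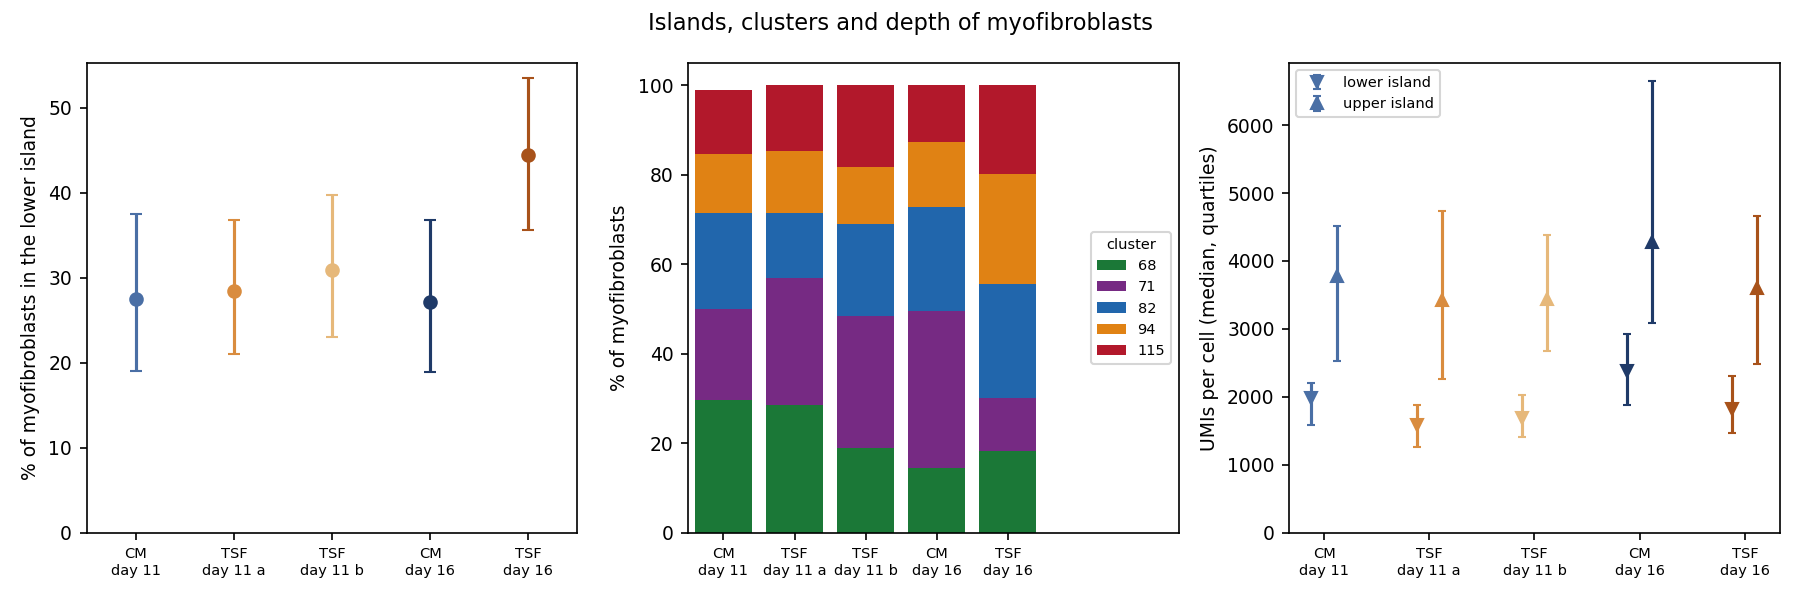
Percent of myofibroblasts in the lower island with exact 95% intervals (left), make-up by cluster (middle, stacked percent; the single cell of cluster 133 in CM day 11 is not drawn) and UMIs per cell by island (right, medians with quartiles over cells). TSF day 16 has the highest lower island share, at 44.4%, and lower island cells have fewer UMIs than upper island cells in every library.

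A finer division by the authors placed the myofibroblasts in 21 sub-clusters of 6 to 49 cells, and 18 of these held cells of every library. Of the 18 with at least 20 cells, 3 had a share of the day 11 myofibroblasts at least 3 times that of day 16. They were sub-clusters D.56 (31 cells at day 11 and 2 at day 16), D.42 (24 and 5) and D.77 (23 and 1). Together they held 25.5% of myofibroblasts in CM day 11, 21.9% and 18.3% in TSF day 11 a and b, 1.94% in CM day 16 and 4.76% in TSF day 16. All 86 of these cells lay in the upper island, and their share was lower at day 16 with CM and with TSF. They were chosen for this difference, so it is a description.

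In the other direction, sub-cluster D.79 had 14 of its 24 cells in TSF day 16, against 2 in CM day 16 and 8 over the day 11 libraries. Its share of myofibroblasts was 11.1% in TSF day 16, and in CM it was 4.08% at day 11 and 1.94% at day 16. By the same rule, 4 of 12 pericyte sub-clusters and 9 of 48 fibroblast sub-clusters were of day 11, with 28.2% and 17.4% of those cells, against 14.6% of myofibroblasts. Of day 16 were 3 of 12 and 3 of 48 sub-clusters, with 22.6% and 4.86% of those cells, against 4.07% of myofibroblasts. Sub-clusters that belong mostly to day 11 were therefore found in all 3 mesenchymal types. Libraries of the same day may share handling, and a change in the cells and a difference between days of processing cannot be told apart.

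To see how much RNA the myofibroblasts gave, UMIs per cell were compared. The median was 3074 in CM day 11, 2474 and 2793 in TSF day 11 a and b, 3329 in CM day 16 and 2488 in TSF day 16. The TSF medians were lower than the CM median on each day, by a ratio of 0.857 at day 11 and 0.748 at day 16. Within islands the ratio at day 16 was 0.766 (lower) and 0.839 (upper). At day 16, fibroblasts had a ratio of 0.838, endothelial cells 0.869, pericytes 0.931 and all annotated cells 0.870, so TSF medians were below CM medians in all of them on that day. At day 11 the ratios were 0.941 in fibroblasts, 0.955 in endothelial cells, 0.996 in pericytes and 0.961 in all annotated cells, closer to 1 than the 0.857 of myofibroblasts. Whether these ratios differ between cell types was not tested.

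Genes per cell followed, with medians of 1416 in CM day 11, 1242 and 1312 in TSF day 11 a and b, 1622 in CM day 16 and 1276 in TSF day 16. Among cells of 2000 to 4000 UMIs the medians were closer, at 1388, 1304, 1345, 1470 and 1334 genes in the same order. CM day 16 remained highest. The median mitochondrial percent was 2.59, 2.26, 2.88, 2.67 and 2.81%, which does not follow treatment or day over both islands together. In the lower island it was 1.57, 1.63, 2.04, 1.97 and 2.16%, with TSF above CM on each day. In the upper island it was 3.12, 2.77, 3.33, 2.78 and 3.54%. There TSF was above CM at day 16, and at day 11 library a was below CM and library b above it. These differences were not tested.

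With fewer UMIs per cell, the myofibroblasts of TSF day 16 gave 1.94% of the UMIs of annotated cells, against 3.23% in CM day 16. At day 11 they gave 2.72% in CM and 2.80% and 2.54% in TSF. The share of UMIs thus set TSF day 16 further below CM day 16 than the share of cells did. A UMI share also depends on the other cells. Among these, the median cancer cell of day 16 held 27679 UMIs in CM and 26615 in TSF, far more than the median myofibroblast.

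Few cell barcodes of myofibroblasts recurred between libraries. 1 barcode was that of a myofibroblast in another library, and 11 of 590 myofibroblasts had a barcode found on any cell of another library.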

How the data were processed

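Single-cell RNA sequencing of dissociated mouse lungs was analysed from the processed tables. The authors made 5' v1.1 libraries (10x Genomics), counted reads with Cell Ranger on the mouse genome mm10 (build GRCm38.p6, to which the CD90.1 reporter was added), and removed free RNA with a customised SoupX, so the counts depend on that correction. Seurat is also named in their processing notes. They placed the merged cells on a map by 1000 highly variable genes with Monocle3, clustered them without a stated batch correction, and named cell types by hand. The deposited cell table gives UMI counts and gene counts of each cell, the percent of mitochondrial UMIs, and map coordinates, a score without unit. Its cells had at least 800 UMIs. For cancer cells of day 16, the authors deposited the count of cells with a UMI of each gene and mean UMIs per 10000. Fold changes, p-values and enrichment scores of the authors in the same tables were not used. Cells of 2 further libraries in the cell table, which match no sample here, were set aside.

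Doublets and unknown cells were left out. Total UMIs per library ranged from 13240822 to 21451787 and the median of annotated cells from 2109 to 2645. Shares are given with exact Clopper-Pearson intervals and ratios with exact conditional intervals, at the 95% level. For TSF day 11 the mean of both libraries was used, with the interval from summed counts. Intervals were tested on simulated data. For a count of 0, the limit of 3 counts of the total is given beside the exact upper bound. With 1 sample per group, no p-value was computed. Genes named were the 4 markers and the members of 3 further lists, and none was named for its change. The members, lists and comparisons were chosen with earlier results of these data known, and islands and single clusters after the map was seen. Alternatives were other denominators, minimums of 1500 and 2000 UMIs, at most 5% mitochondrial UMIs, leaving out TSF day 11 library a or b, and counting doublets and unknown cells of the 5 clusters as myofibroblasts. Computations used scipy 1.17.1, pandas 2.3.3 and numpy 2.4.6 in Python 3.11.15, with plots from matplotlib 3.10.9.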

Additional observations from a re-analysis of the deposited data

Results flagged for a closer look

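Of 13 values of the myofibroblasts compared between days, 6 had the TSF over CM ratio on one side of 1 in both libraries of day 11 and on the other side at day 16. The differences below are log2 ratios of TSF over CM at day 16 minus the mean log2 ratio at day 11, and none of them was tested, since each group was 1 sample. The odds of cluster 71 differed by -2.66, the widest of the 6. Myofibroblasts per pericyte differed by 1.22, which involves CM day 11 with its 46 pericytes. The odds of cluster 68 differed by 0.85, myofibroblasts per endothelial cell by 0.81 and the odds of cluster 82 by 0.54. The share of myofibroblasts among annotated cells differed by -0.18. For that share and for clusters 68 and 82, the ratios of both days had intervals across 1. In the other 3 items, one of the ratios had an interval across 1, at day 11 for cluster 71 and endothelial cells and at day 16 for pericytes.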

How the results depend on the processing

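Over 20 ratios of TSF over CM or of day 16 over day 11, 120 alternatives were computed, of which 113 stayed within the counting interval of the reported value, and no ratio with an interval apart from 1 turned to the other side. Without granulocytes in the denominator, the TSF day 16 share was 3.63%, TSF over CM at day 16 was 1.18 and day 16 over day 11 in TSF was 1.30. Among non-immune cells without cancer cells, shares were 5.46% (CM day 11), 5.40% and 5.33% (TSF day 11 a and b), 6.01% (CM day 16) and 7.59% (TSF day 16), with ratios of 1.26 and 1.42 for the same comparisons. Among mesenchymal cells, shares were 20.4, 18.7, 19.1, 17.7 and 18.5% in that order. These moves follow from the changed denominator. With at least 1500 UMIs, the TSF day 11 b share was 3.12%. With at least 2000 UMIs, shares were 3.25% (CM day 11), 3.38% (TSF day 11 b) and 3.58% (CM day 16), myofibroblasts per pericyte at day 16 over day 11 in TSF was 0.700, and lower per upper island cells was 0.518 for TSF over CM at day 11 and 3.31 for day 16 over day 11 in TSF. The cause was not tested.

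In 8 of the 120 alternatives the interval moved onto or off 1, and 5 of them were UMI minimums. One was the odds of cluster 71 at day 16 over day 11 in CM, 2.10 as reported, which was 1.79 and 1.42 with at least 1500 and 2000 UMIs and 1.91 with at most 5% mitochondrial UMIs, each with an interval across 1. Leaving out TSF day 11 library a or b kept every ratio within its interval. No paired analysis was possible because the replicate names a and b exist in 1 group alone. The pseudocount alternative for markers in cancer cells was not run, since no fold change is reported. The islands and cluster 71, and their alternatives, were chosen after seeing the data. Pools of 3 mice in 1 library per group, counts of 98 to 137 myofibroblasts per library and the lack of gene levels in single cells here limit what can be read.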
